A study of Mus musculus with 12 samples.

Results

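The genes described here are 8 semaphorins (Sema3a, Sema3b, Sema3c, Sema3d, Sema3e, Sema3f, Sema5a and Sema7a) and the neuropilins Nrp1 and Nrp2. They were taken by gene symbol from the platform annotation, and all 10 of 10 were measured, each by 1 probe set that carries no other symbol, among 19938 genes in all. The cells were cardiac colony-forming-unit fibroblasts (cCFU-F), which are fibroblasts of the heart interstitium that grow as colonies, in bulk culture at passage P0. They came from hearts of male C57BL/6 mice aged 12 weeks and had been sorted as positive for SCA1 and PDGFRα and negative for CD31. The 4 groups, with 3 arrays each, were cells given PDGF-AB (50 ng/ml), cells given AG1296 at either 10 uM or 1 uM, and untreated cells. PDGF-AB is a dimeric ligand of the PDGF receptors, and AG1296 is a tyrosine kinase inhibitor of these receptors that also acts on related kinases. How many mice or cultures stand behind the arrays, how long cells were treated and whether a vehicle was given are not stated in the sources used here. If a vehicle was used, its effect and the treatment's cannot be told apart.

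Semaphorins are guidance cues. The secreted class 3 members repel or attract growing axons, migrating neural crest cells and endothelial cells. They act through a complex in which a neuropilin binds the ligand and a plexin carries the signal into the cell, where it loosens adhesion and collapses the actin cytoskeleton. Sema3e is the exception in its class, since it binds the plexin Plxnd1 directly. In the mouse heart, Sema3a shapes sympathetic innervation, Sema3c guides neural crest cells into the outflow tract, and Sema3d helps to place the pulmonary veins. Sema5a is a membrane protein with thrombospondin repeats, and Sema7a is held in the membrane by a lipid anchor and binds integrins. Nrp1 and Nrp2 also serve as co-receptors of VEGF family ligands.

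The 4 class 3 genes whose transcripts differed between groups, Sema3d, Sema3a, Sema3e and Sema3c, lie in that order on mouse chromosome 5. Sema3d and Sema3a are direct neighbours, with 0 protein-coding genes between them in the RefSeq annotation of GRCm38.p6, while 3 lie between Sema3a and Sema3e and 15 between Sema3e and Sema3c. Their promoter windows are shown because neighbours moved in opposite directions. Each window holds 250 bases before the annotated start and 50 after it, on the plus strand, from RefSeq on GRCm38.p6: chr5:12382916-12383215 for Sema3d, chr5:17574566-17574865 for Sema3c, chr5:13396534-13396833 for Sema3a and chr5:14025026-14025325 for Sema3e. Capitals mark matches to the motifs named in the next paragraph, on either strand.
Sema3d: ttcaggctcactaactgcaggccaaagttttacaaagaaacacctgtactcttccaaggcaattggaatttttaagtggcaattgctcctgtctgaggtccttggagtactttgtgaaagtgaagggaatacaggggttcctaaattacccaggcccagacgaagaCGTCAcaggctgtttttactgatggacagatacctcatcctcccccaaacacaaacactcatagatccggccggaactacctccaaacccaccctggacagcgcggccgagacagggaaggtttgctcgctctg
Sema3c: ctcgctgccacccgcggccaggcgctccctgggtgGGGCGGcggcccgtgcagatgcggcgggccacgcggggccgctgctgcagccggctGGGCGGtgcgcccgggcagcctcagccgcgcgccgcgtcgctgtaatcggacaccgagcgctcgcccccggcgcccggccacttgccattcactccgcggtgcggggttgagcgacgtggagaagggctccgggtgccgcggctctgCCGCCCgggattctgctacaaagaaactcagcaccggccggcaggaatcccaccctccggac
Sema3a: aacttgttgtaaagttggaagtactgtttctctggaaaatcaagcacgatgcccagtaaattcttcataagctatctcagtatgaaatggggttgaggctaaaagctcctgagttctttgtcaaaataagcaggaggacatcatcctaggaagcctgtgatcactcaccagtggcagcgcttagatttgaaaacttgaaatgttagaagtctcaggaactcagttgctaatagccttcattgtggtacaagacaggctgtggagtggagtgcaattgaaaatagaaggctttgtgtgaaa
Sema3e: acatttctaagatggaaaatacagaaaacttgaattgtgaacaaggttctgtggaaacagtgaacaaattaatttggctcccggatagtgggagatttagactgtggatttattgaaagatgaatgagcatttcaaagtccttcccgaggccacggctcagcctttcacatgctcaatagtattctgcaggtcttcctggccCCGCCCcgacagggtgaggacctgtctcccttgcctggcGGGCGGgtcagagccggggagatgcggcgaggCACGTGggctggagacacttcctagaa

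The windows differed in base composition. G and C made up 49.7% of the Sema3d window, 75.7% of that of Sema3c, 41.3% of that of Sema3a and 50.7% of that of Sema3e, against a median of 52.7% over 32851 promoter windows. The GC box GGGCGG was found 3 times in the Sema3c window and 2 times in that of Sema3e, and 35.7% of all windows held it. The core of the cyclic AMP response element, TGACG, occurred 1 time in the Sema3d window (20.8% of all windows), and the E-box CACGTG 1 time in that of Sema3e (7.15%). The Sema3a window held no match to these motifs. The AP-1 motif TGANTCA, which 7.81% of all windows held, the FOXO motif GTAAACA (3.65%), the TEAD motif CATTCC (14.7%), the TATA box TATAAA (13.6%) and the CArG box of SRF (1.63%) had no match in any of the 4 windows. The GC box, this core and the E-box were added to the search after the sequences had been seen, and all of these matches only describe the letters. Of the other genes, Sema5a, Sema7a, Nrp1 and Nrp2 had a window in the same table.

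All values are log2 expression after RMA by the authors, so that a difference of 1 is a doubling, and they compare groups for the same gene, not genes with each other. The median over all probe sets was 4.02 to 4.13 on the 12 arrays. Of the 10 genes, 9 lay above the median of every array. Sema3b lay below it on all 12, where background limits any difference. Of 11 measured fibroblast markers, 10 lay above the median on every array, and 0 of 10 endothelial markers did. Among other cells, 1 of 9 leukocyte, 2 of 8 cardiomyocyte, 2 of 6 Schwann and nerve, and 5 of 10 pericyte and smooth muscle markers lay above it on every array. The last group has genes that cultured fibroblasts share, and its median per array was 5.02 to 5.23 with PDGF-AB, 4.99 to 5.20 at 10 uM AG1296 and 4.77 to 4.87 at 1 uM AG1296, against 4.66 to 4.74 in untreated cells. The median of the leukocyte markers was 3.01 to 3.06 with PDGF-AB, 2.99 to 3.27 with AG1296 10 uM and 3.28 to 3.38 with AG1296 1 uM, against 3.39 to 3.65 in untreated cells. A list's median level follows the gene in its middle, and the median of the differences per gene is a separate measure. Against untreated cells it was 0.01 with PDGF-AB, 0.10 at 10 uM and 0.003 at 1 uM for pericyte and smooth muscle markers. For leukocyte markers it was -0.001, -0.02 and 0.05. Between PDGF-AB and untreated cells, Notch3 stood at 0.53 ± 0.11 and Cspg4 at 0.72 ± 0.16, uncalled (limma, adjusted p = 0.062 and 0.111). Against AG1296 1 uM, 3 of 10 pericyte and smooth muscle markers were higher with PDGF-AB and 0 lower (limma). They were Mcam at 1.12, Cspg4 at 0.66 and Notch3 at 0.54, where 5.21% of all genes were called. Cspg4 averaged 3.55 in untreated cells, below the array medians. With AG1296 1 uM, 0 of 10 pericyte and smooth muscle markers rose and 2 fell (limma), where 1.88% of all genes rose and 1.33% fell. The 2 were Mcam, by 1.42 ± 0.09, and Cnn1, by 0.70 ± 0.12 on the log2 scale. At 10 uM, 1 rose and 1 fell, and with PDGF-AB 0 did either. With PDGF-AB, the leukocyte marker Cd53 rose by 1.77 ± 0.24 and Tyrobp fell by 0.53 ± 0.09. Of 10 endothelial markers, 1 was called in any comparison. This was Tek, which rose with AG1296 1 uM by 0.73 ± 0.10 (limma, adjusted p = 0.000761). Its mean was 3.52 in untreated cells, below the array medians, and 4.25 at 1 uM. Of the fibroblast markers, 4 rose and 1 fell with AG1296 1 uM (limma), with a median difference of 0.11. Among them were the matrix proteoglycan Dcn at 1.70 ± 0.10 and the sorted receptor's gene Pdgfra at -0.91 ± 0.09. At 10 uM, 3 fibroblast markers rose and 1 fell, where 1.21% of all genes rose and 0.672% fell. With PDGF-AB, 0 fibroblast markers did either. The part of these markers in the results was not tested. In bulk cultures, fewer cells that make a transcript and less of it per cell cannot be told apart.

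Of the 10 genes, 6 differed among the 4 groups in a moderated F test (limma, Benjamini-Hochberg adjusted p under 0.05), where 5.00% of all 19938 genes did. These were Sema3d (adjusted p = 2.18e-07), Sema3a (1.45e-05), Nrp2 (0.000335), Sema3c (0.000662), Sema3e (0.00122) and Sema5a (0.00425). They fell into opposing patterns. Sema3d and Sema3c were highest with AG1296 1 uM and lowest with PDGF-AB, while Sema3a, Nrp2 and Sema5a were highest with PDGF-AB and lowest with AG1296 1 uM. Sema3e was lowest with AG1296 and highest in untreated cells. The genes were listed with earlier results of these arrays known, so their share is a description and no test of the family. Dim genes count in the 5.00%: in a fit of only the 9969 genes whose mean reached that of the median gene, 1518 passed. The other shares of all genes, and the median differences over all genes, count dim genes in the same way.

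**Figure D1:**
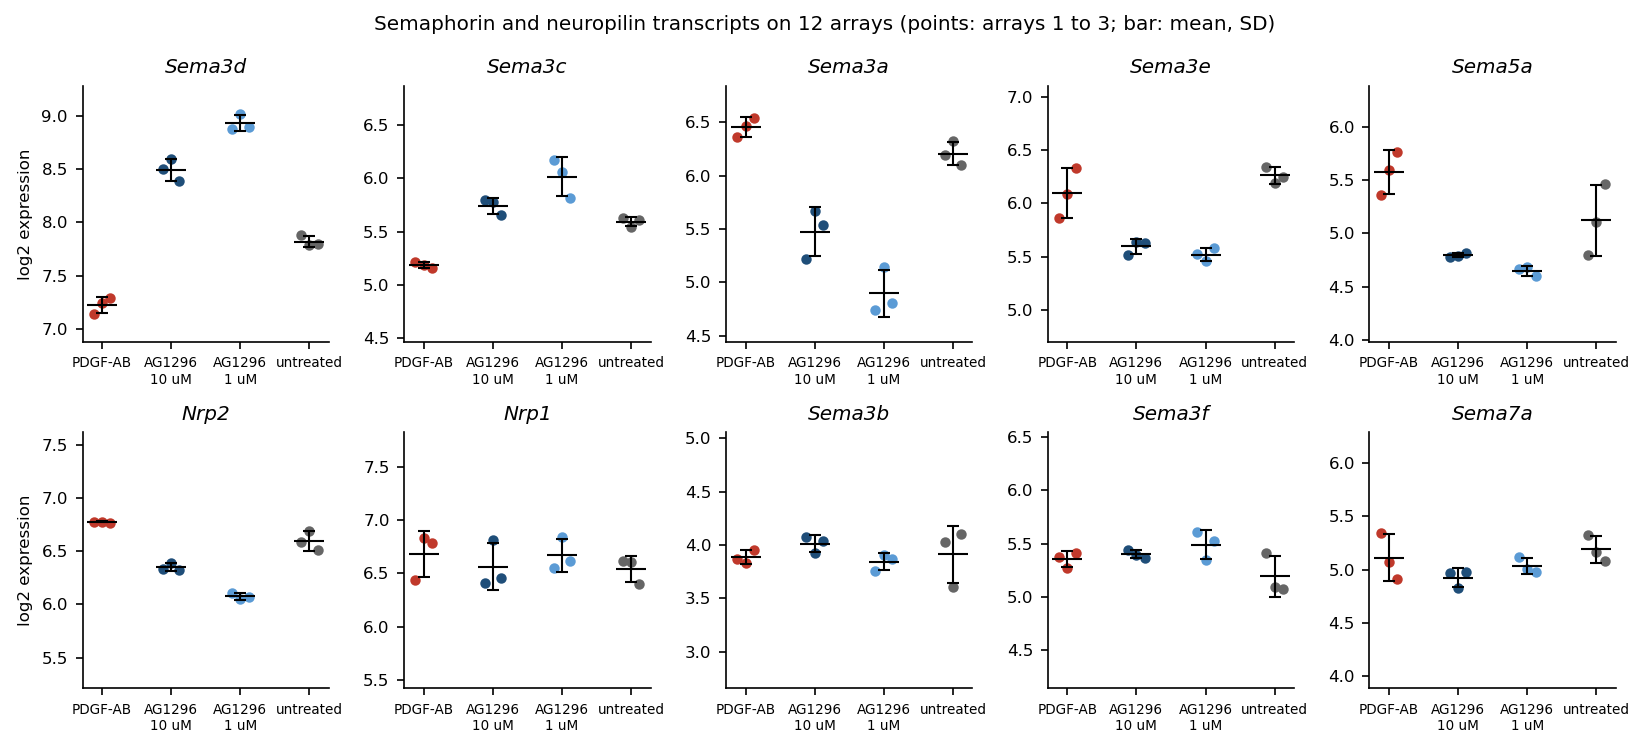
Log2 expression of the 10 genes (vertical axes, each spanning the same 2.4 log2 units) on every array of the 4 groups, with 3 arrays per group as points and the mean with SD as a bar. The arrays of all 4 groups are separate for Sema3d, Sema3a, Sema3c and Nrp2, and overlap throughout for Nrp1 and Sema3f.

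Among the ligands, Sema3d, a secreted semaphorin that repels endothelial cells, had the widest range of group means of the 10 genes. Its values were 7.14, 7.25 and 7.29 with PDGF-AB, 8.50, 8.59 and 8.39 with AG1296 10 uM, and 8.88, 9.02 and 8.90 with AG1296 1 uM, against 7.88, 7.79 and 7.79 in untreated cells. The 3 arrays of each group stayed apart from those of every other group. Sema3d fell with PDGF-AB by 0.59 ± 0.09 on the log2 scale (SE, n = 3 arrays per group; limma, adjusted p = 0.0107). It was the only listed gene called in that comparison, in which 0.331% of all genes were called. It rose 1.60-fold with AG1296 10 uM, a log2 difference of 0.67 ± 0.09 (limma, adjusted p = 0.000825), and 2.16-fold with AG1296 1 uM, a log2 difference of 1.11 ± 0.09 (limma, adjusted p = 5.21e-06). These comparisons share the untreated arrays. PDGF-AB and AG1296, which do not share an array, were furthest apart. Sema3d was 3.26-fold lower with PDGF-AB than with AG1296 1 uM, at -1.70 ± 0.09 (limma, adjusted p = 6.2e-08), and 2.41-fold lower than with AG1296 10 uM, at -1.27 ± 0.09 (limma, adjusted p = 1.42e-06). The PDGF-AB call against untreated cells was lost without untreated replicate 1 (limma, adjusted p = 0.0653) and in a fit of only those 6 arrays (0.107), with log2 differences of -0.56 and -0.59.

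Sema3c, which attracts neural crest cells and binds either neuropilin, followed the same order with smaller steps. It was at 5.22, 5.19 and 5.16 with PDGF-AB, 5.80, 5.78 and 5.66 with AG1296 10 uM and 6.17, 6.06 and 5.82 with AG1296 1 uM, against 5.63, 5.54 and 5.61 in untreated cells. The groups again did not overlap, although the lowest array at 1 uM and the highest at 10 uM were close. Sema3c rose with AG1296 1 uM by 0.42 ± 0.10 (log2 difference ± SE; limma, adjusted p = 0.0278). Leaving out AG1296 1 uM replicate 1 or 2, or untreated replicate 1, 2 or 3, ended that call (limma, adjusted p = 0.0746 to 0.140), as did a fit of these 6 arrays alone (0.0929). Against untreated cells the difference was -0.40 ± 0.10 with PDGF-AB (limma, adjusted p = 0.145) and 0.15 ± 0.10 with AG1296 10 uM (0.640). Neither passed the threshold, although the first had an unadjusted p of 0.00098. Between treatments, Sema3c was lower with PDGF-AB than with AG1296 1 uM by 0.83 ± 0.10 (log2 difference of -0.83; limma, adjusted p = 9.54e-05). Against AG1296 10 uM the log2 difference was -0.55 ± 0.10 (limma, adjusted p = 0.00398).

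Sema3a, which repels axons through Nrp1 and a plexin A receptor, changed the other way from its neighbour Sema3d. Its values were 6.36, 6.46 and 6.54 with PDGF-AB, 5.22, 5.67 and 5.54 with AG1296 10 uM, and 4.74, 5.14 and 4.80 with AG1296 1 uM, against 6.19, 6.32 and 6.11 in untreated cells. All AG1296 arrays lay below all untreated arrays, and all PDGF-AB arrays above them by a narrow margin. Sema3a fell 2.48-fold with AG1296 1 uM, a log2 difference of -1.31 ± 0.13 (limma, adjusted p = 4.61e-05), and 1.66-fold with AG1296 10 uM, a log2 difference of -0.73 ± 0.13 (limma, adjusted p = 0.00897). The difference between PDGF-AB and untreated cells, 0.25 ± 0.13, did not pass (limma, adjusted p = 0.635; 95% interval -0.03 to 0.53). It was 2.95-fold higher with PDGF-AB than with AG1296 1 uM (log2 difference 1.56 ± 0.13; limma, adjusted p = 4.76e-06) and 1.97-fold higher than with AG1296 10 uM (0.98 ± 0.13; limma, adjusted p = 0.000522).

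Sema3e, the ligand of Plxnd1 that restrains growing vessels, was lower with the inhibitor at either dose. It was at 5.86, 6.09 and 6.33 with PDGF-AB, 5.52, 5.64 and 5.63 with AG1296 10 uM and 5.52, 5.46 and 5.58 with AG1296 1 uM, against 6.34, 6.19 and 6.25 in untreated cells. The arrays of the inhibitor groups overlapped each other and lay below all others, and the PDGF-AB arrays were spread wide enough to overlap the untreated ones. It fell by 0.67 ± 0.11 with AG1296 10 uM (log2 difference -0.67; limma, adjusted p = 0.00544) and by 0.74 ± 0.11 with AG1296 1 uM (limma, adjusted p = 0.0014). With PDGF-AB the log2 difference from untreated cells was -0.17 ± 0.11 (limma, adjusted p = 0.713). Sema3e was higher with PDGF-AB than with AG1296 1 uM by 0.58 ± 0.11 (limma, adjusted p = 0.00584). The difference between PDGF-AB and AG1296 10 uM, 0.50 ± 0.11 (limma, adjusted p = 0.0211), lost its call without AG1296 10 uM replicate 1, 2 or 3, without PDGF-AB replicate 2 or 3 (limma, adjusted p = 0.0525 to 0.0952) and with only the 6 arrays compared (0.108).

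Sema5a, the membrane-bound member, had its widest spread in untreated cells. Its values were 5.36, 5.60 and 5.77 with PDGF-AB, 4.78, 4.79 and 4.82 with AG1296 10 uM and 4.66, 4.69 and 4.60 with AG1296 1 uM, against 4.79, 5.11 and 5.46 in untreated cells. Untreated replicate 1 lay within the range of the AG1296 10 uM arrays, and untreated replicate 3 within that of the PDGF-AB arrays. No comparison with untreated cells passed. The log2 difference was 0.46 ± 0.14 with PDGF-AB (limma, adjusted p = 0.347), -0.33 ± 0.14 with AG1296 10 uM (0.396) and -0.47 ± 0.14 with AG1296 1 uM (0.114). The last of these was -0.64 and passed without untreated replicate 1 (limma, adjusted p = 0.0233). Sema5a was higher with PDGF-AB than with AG1296 1 uM by 0.93 ± 0.14 (limma, adjusted p = 0.0012) and than with AG1296 10 uM by 0.78 ± 0.14 (limma, adjusted p = 0.00627).

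**Figure D2:**
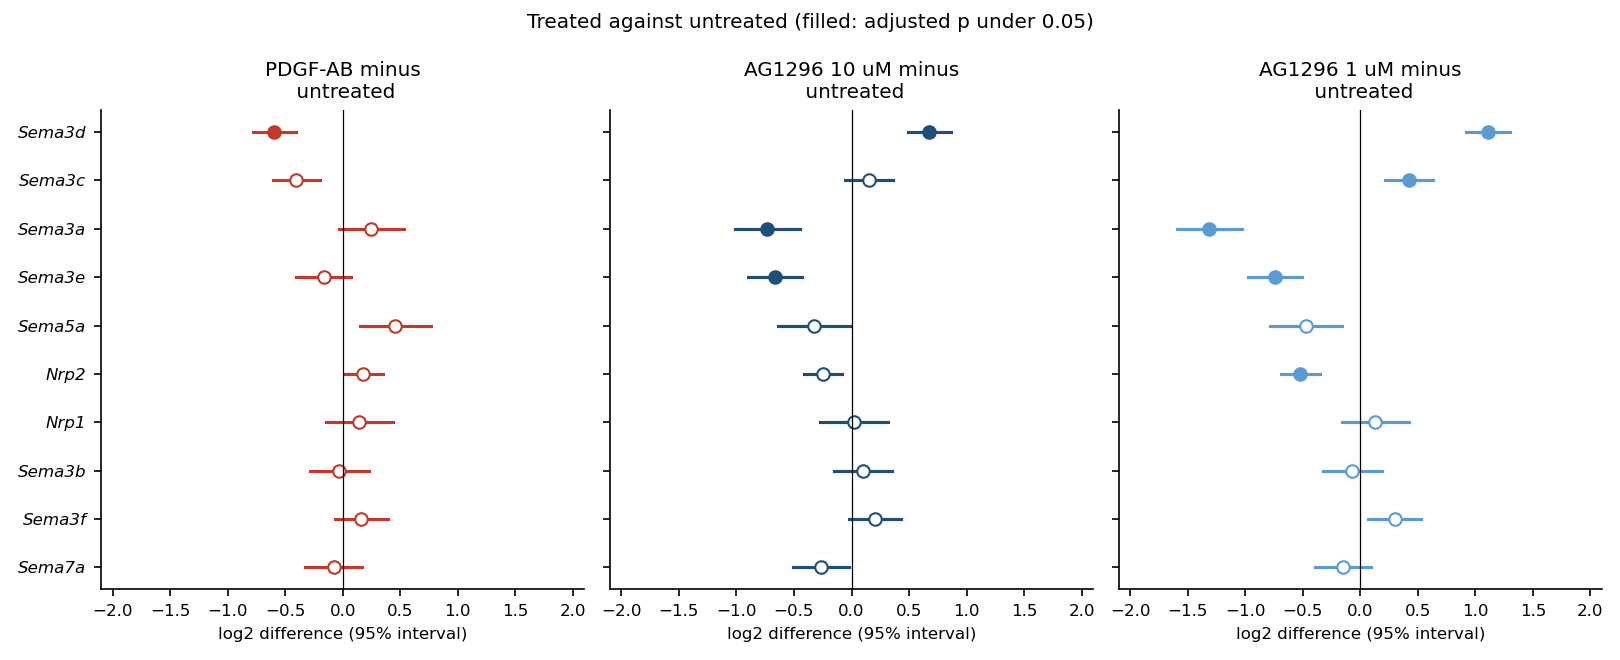
Log2 difference of each treatment from untreated cells (horizontal axes) for the 10 genes, with 95% intervals from the limma fit, and filled points where the adjusted p was under 0.05. The filled points are Sema3d with PDGF-AB, Sema3d, Sema3a and Sema3e with AG1296 10 uM, and these 3 with Sema3c and Nrp2 at 1 uM.

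The remaining ligands, Sema3b, Sema3f and Sema7a, passed in none of the 6 comparisons (limma), although Sema3f and Sema7a each had an unadjusted p under 0.05 in 1 of them. Sema3b and Sema3f are secreted ligands that bind neuropilins, and Sema3f is the preferred partner of Nrp2. Sema3b ranged over all 12 arrays between 3.61 and 4.10, with its extremes both in untreated cells. Sema3f was at 5.38, 5.28 and 5.41 with PDGF-AB, 5.44, 5.40 and 5.36 with AG1296 10 uM and 5.61, 5.34 and 5.52 with AG1296 1 uM, against 5.42, 5.09 and 5.07 in untreated cells. Untreated replicate 1 stood with the treated arrays. Its largest log2 difference, 0.30 ± 0.11 between AG1296 1 uM and untreated cells, had an adjusted p of 0.204 (limma) and a 95% interval of 0.07 to 0.53. Sema7a, which signals through integrins and Plxnc1, spanned 4.83 to 5.35, and its log2 difference was largest between AG1296 10 uM and untreated cells at -0.26 ± 0.11 (limma, adjusted p = 0.381). Over the 6 comparisons, the 95% intervals stayed between -0.38 and 0.42 for Sema3b, between -0.36 and 0.53 for Sema3f and between -0.51 and 0.43 for Sema7a. Larger changes than these lie outside the intervals, which are not adjusted for the number of genes. Smaller changes did not pass the adjusted threshold with 3 arrays per group.

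Nrp2, a co-receptor for Sema3f and VEGF-C, passed the F test. It was at 6.78, 6.78 and 6.77 with PDGF-AB, 6.33, 6.39 and 6.32 with AG1296 10 uM, and 6.11, 6.05 and 6.07 with AG1296 1 uM, against 6.59, 6.69 and 6.51 in untreated cells. The 4 groups did not overlap and stood in the same order as for Sema3a. Nrp2 fell with AG1296 1 uM by 0.52 ± 0.08 (log2 difference of -0.52; limma, adjusted p = 0.00163). The differences from untreated cells were -0.25 ± 0.08 with AG1296 10 uM (limma, adjusted p = 0.174) and 0.18 ± 0.08 with PDGF-AB (0.557), and neither passed. It was 1.62-fold higher with PDGF-AB than with AG1296 1 uM (log2 difference 0.70 ± 0.08; limma, adjusted p = 7.11e-05) and 1.34-fold higher than with AG1296 10 uM (0.43 ± 0.08; limma, adjusted p = 0.00634).

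Nrp1, the co-receptor for Sema3a and VEGF-A, was at 6.44, 6.83 and 6.78 with PDGF-AB, 6.41, 6.81 and 6.46 with AG1296 10 uM and 6.55, 6.84 and 6.61 with AG1296 1 uM, against 6.62, 6.60 and 6.40 in untreated cells. The groups overlapped in every comparison, and the F test gave an adjusted p of 0.841 (limma). Its log2 differences lay between -0.11 and 0.14, and the 95% intervals of all 6 between -0.40 and 0.43. Soluble and membrane-bound forms of the neuropilins were not separated by these gene-level values. Whether the neuropilins differ from each other in their response was not tested.

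Each comparison with untreated cells can be read against all genes. With PDGF-AB, 0 of the 10 genes rose and 1 fell (0.120% and 0.211% of all genes). With AG1296 10 uM, 1 rose and 2 fell, where 1.21% of all genes rose and 0.672% fell, 1.88% together. With AG1296 1 uM, 2 rose and 3 fell, where 1.88% of all genes rose and 1.33% fell, 3.20% together. The arrays of the treated and untreated cells did not overlap for 4 of the 10 genes with PDGF-AB (13.3% of all genes), 6 with AG1296 10 uM (18.0%) and 6 with AG1296 1 uM (20.3%). The median log2 difference of the 10 genes was 0.06, -0.11 and -0.11 in that order, against 0.01, 0.01 and -0.01 over all genes, since rises and falls offset each other. The median size of the difference, without its sign, was 0.17, 0.26 and 0.45, against 0.09, 0.10 and 0.10 over all genes.

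Setting the ligand against the inhibitor called more of the 10 genes, and more of all genes, than the comparisons with untreated cells. Between PDGF-AB and AG1296 10 uM, 6 of the 10 genes were called, where 3.42% of all genes were. Sema3a, Sema3e, Sema5a and Nrp2 were higher with PDGF-AB, and Sema3d and Sema3c lower. Against AG1296 1 uM these 6 were called again, each in the same direction, where 5.21% of all genes were called. Those 6 genes were also the ones whose arrays did not overlap, as were 18.1% of all genes against 10 uM and 21.8% against 1 uM. These comparisons share the PDGF-AB arrays. The median size of the difference over the 10 genes was 0.46 against 10 uM and 0.64 against 1 uM, while over all genes it was 0.11 and 0.12.

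**Figure D3:**
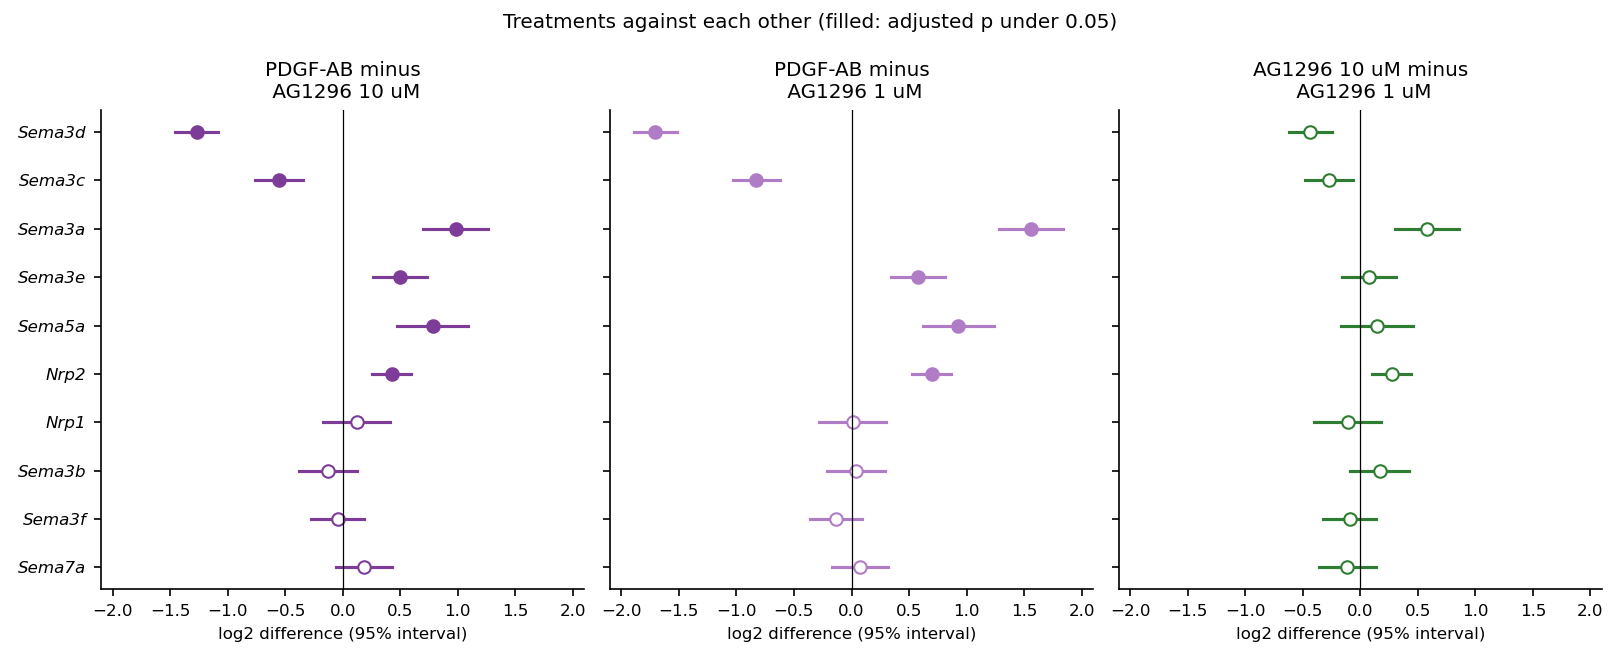
Log2 difference between treatments (horizontal axes) for the 10 genes, with 95% intervals from the limma fit, and filled points where the adjusted p was under 0.05. Sema3d and Sema3c lie left of 0 in both comparisons of the ligand with the inhibitor, and Sema3a, Sema3e, Sema5a and Nrp2 right of it.

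Between the doses, 0 of the 10 genes were called by limma, where 0.376% of all genes were called, and 4 had an unadjusted p under 0.05, where 9.07% of all genes did. The largest differences between 10 uM and 1 uM were those of Sema3a at 0.58 ± 0.13 (limma, adjusted p = 0.102) and Sema3d at -0.44 ± 0.09 (0.0558). Sema3c stood at -0.27 ± 0.10 (limma, adjusted p = 0.370) and Nrp2 at 0.27 ± 0.08 (0.239). The arrays of the doses did not overlap for 6 of the 10 genes, these 4 with Sema5a and Sema3b, where 15.9% of all genes were so. For these 4 the 10 uM mean was the closer to untreated cells. The Sema3d difference passed after quantile normalization (limma, adjusted p = 0.0307), with an intensity trend and robust moderation (0.00199), with dim genes left out (0.0102 and 0.0149) and without PDGF-AB replicate 1 (0.0493). That of Sema3a passed with the same trend setting (0.0186) and with dim genes left out (0.0315 and 0.0433). Sema3e and Sema5a differed between doses by 0.08 ± 0.11 and 0.15 ± 0.14, with 95% intervals of -0.16 to 0.31 and -0.16 to 0.45.

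**Figure D4:**
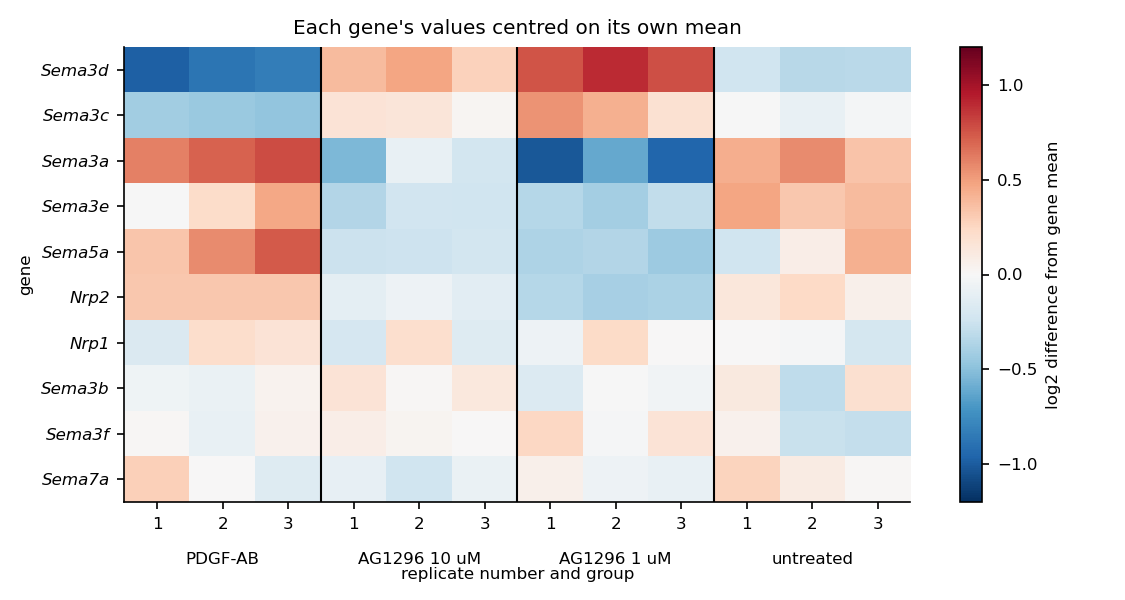
Values of the 10 genes (rows) on the 12 arrays (columns, in groups of 3) as log2 differences from each gene's own mean over all arrays, with red above and blue below that mean. Sema3d and Sema3c are below their means with PDGF-AB and above them with AG1296, and Sema3a and Nrp2 are above their means with PDGF-AB and in untreated cells and below them with AG1296.

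For the 4 genes with the widest range of group means among those that passed the F test, the genes with the most similar profile were sought over the 12 arrays. The measure was the root mean square difference after each gene had been centred on its own mean. Sema3d, whose own SD over the arrays was 0.68, was nearest to Scel (0.10), Bmp4 (0.11) and Pcsk6 (0.12). Bmp4, a BMP ligand, averaged 5.26 with PDGF-AB, 6.41 at 10 uM AG1296 and 6.96 at 1 uM AG1296, against 5.88 in untreated cells. Sema3a, with an SD of 0.66, was nearest to Cap2 (0.15), Tes (0.18) and Cxcl12 (0.18). The chemokine Cxcl12 averaged 7.19 with PDGF-AB, 6.13 at 10 uM AG1296 and 5.52 at 1 uM AG1296, against 6.62 in untreated cells. Sema5a (SD 0.41) was nearest to Aqp1 (0.15), Fosl1 (0.16) and Gnb4 (0.17), and Sema3c (SD 0.32) to Papss2 (0.09), Vgll3 (0.09) and Car8 (0.10).

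The wider semaphorin system was read from lists of 100 genes, of which 98 were measured, and 22 were called in at least 1 of the 6 comparisons, as were 7.01% of all genes. Pak1 and Ephb2 were not analysed here. The 12 other semaphorins, of classes 3 to 6, held 0 calls in any comparison (limma, smallest adjusted p = 0.297; 2 genes, Sema6d and Sema4f, had an unadjusted p under 0.05). Of these 12, 9 had a mean over all arrays of 3.30 to 4.04, near or below the array medians, where background limits a difference. Among the 9 plexins, which carry the semaphorin signal into the cell, 2 were called. Plxna4, a signalling partner of Nrp1 for Sema3a, averaged 4.80 with PDGF-AB, 5.54 at 10 uM AG1296 and 5.87 at 1 uM AG1296, against 5.21 in untreated cells. It was lower with PDGF-AB than with AG1296 1 uM by 1.06 ± 0.15 (log2 difference of -1.06; limma, adjusted p = 0.000439). It also rose with AG1296 1 uM by 0.66 ± 0.15 (limma, adjusted p = 0.0256), but leaving out any AG1296 1 uM array, or untreated replicate 2 or 3, ended this call (adjusted p up to 0.121). Plxna2 was higher with PDGF-AB than with AG1296 1 uM by 0.50 ± 0.11 (limma, adjusted p = 0.0178), but not without PDGF-AB replicate 2 or 3 or AG1296 1 uM replicate 1, nor with only the 6 arrays compared (up to 0.0943).

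**Figure D5:**
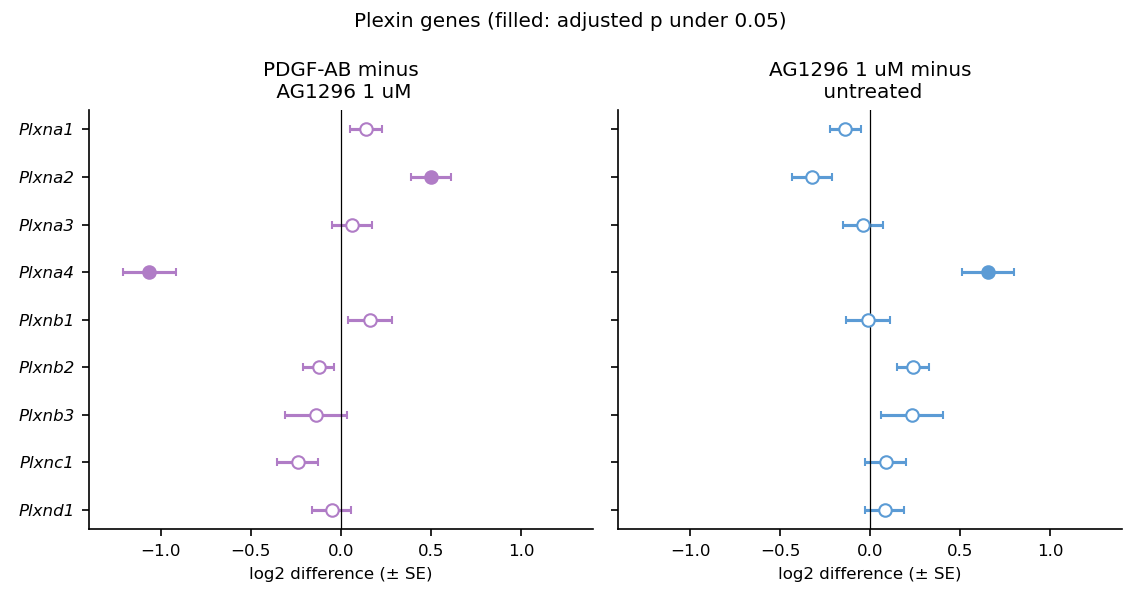
Log2 difference (horizontal axes, ± SE from the limma fit) of the 9 plexin genes between PDGF-AB and AG1296 1 uM and between AG1296 1 uM and untreated cells, with filled points where the adjusted p was under 0.05. Plxna4 is the only gene called in both panels, at -1.06 and 0.66.

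Of 12 other semaphorin receptors and partners, 6 were called in at least 1 comparison. Itga1, the alpha subunit of a collagen-binding integrin that also binds Sema7a, averaged 5.54 with PDGF-AB, 6.49 at 10 uM AG1296 and 6.52 at 1 uM AG1296, against 5.85 in untreated cells. It was lower with PDGF-AB than with AG1296 10 uM (log2 difference -0.95 ± 0.15; limma, adjusted p = 0.00217) and than with AG1296 1 uM (-0.99 ± 0.15; 0.00119). The Slit receptor Robo1 and the receptor kinase Mst1r were lower with PDGF-AB than with AG1296 1 uM, at -0.52 ± 0.10 and -0.60 ± 0.12 (limma, adjusted p = 0.0072 and 0.0091). Cntn2, Ptk7 and Met were called between PDGF-AB and AG1296 1 uM at -0.77, 0.49 and 0.40 (limma, adjusted p = 0.0222, 0.0122 and 0.0473). Cntn2 averaged 3.96 with PDGF-AB, below the array medians, so the size of its difference is limited by background. Its call ended without AG1296 1 uM replicate 2 or 3 or PDGF-AB replicate 1 or 2, and with only the 6 arrays compared (limma, adjusted p up to 0.0905). That of Ptk7 ended without AG1296 1 uM replicate 3 or PDGF-AB replicate 1 (up to 0.0569). The Met call was lost under 12 of 21 alternatives, any array of either group left out among them (up to 0.157).

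Of 22 intracellular effectors, 4 were called. Limk1, the kinase that inactivates cofilin in growth cone collapse, was higher with PDGF-AB than with AG1296 1 uM by 0.60 ± 0.09 (limma, adjusted p = 0.00138). Dpysl3, a collapsin response mediator protein, fell with AG1296 1 uM by 0.53 ± 0.09 (log2 difference of -0.53; limma, adjusted p = 0.00537). Rnd3, a GTPase that opposes RhoA, was lower with PDGF-AB than with AG1296 10 uM at -0.56 ± 0.11 (limma, adjusted p = 0.0104), though not without AG1296 10 uM replicate 2 (0.0507). Mical3 stood at 0.48 ± 0.12 between AG1296 1 uM and untreated cells (limma, adjusted p = 0.0397), a call lost under 10 of 21 alternatives, with adjusted p up to 0.175. Its difference was 0.28 as the mean of all its probe sets, so its size depends on the probe set chosen.

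Of 12 VEGF ligands and receptors and other growth factor genes linked to neuropilins, 5 were called. Vegfd, a ligand of the lymphatic VEGF receptor, rose with AG1296 10 uM by 0.80 ± 0.09 (limma, adjusted p = 0.000234) and with AG1296 1 uM by 0.77 ± 0.09 (0.000157). Vegfc, which binds Nrp2, rose with AG1296 1 uM by 0.72 ± 0.08 (limma, adjusted p = 0.000143), and at 10 uM it was lower than at 1 uM by 0.63 ± 0.08 (log2 difference of -0.63; 0.00476, and 0.0644 with only the 6 arrays compared). Hgf, which lies between Sema3e and Sema3c on chromosome 5 and is the ligand of Met, averaged 4.61 with PDGF-AB and 3.10 with AG1296 1 uM (limma, adjusted p = 1.08e-05). The AG1296 and untreated means lay below the array medians, so the size of its difference is limited by background. Tgfb1 was higher than in untreated cells with PDGF-AB, at 0.49 ± 0.08 (limma, adjusted p = 0.0222), and with AG1296 1 uM, at 0.35 ± 0.08 (0.0350). Leaving out any PDGF-AB or untreated array ended the first call, as did a fit of only the 6 arrays compared (adjusted p up to 0.169). The second was lost under 7 of 21 alternatives (up to 0.164). Tgfbr1 was at 0.41 ± 0.09 between PDGF-AB and AG1296 10 uM (limma, adjusted p = 0.0191). This did not hold when any AG1296 10 uM array, or PDGF-AB replicate 1 or 2, was left out (adjusted p up to 0.0851). Nor did it hold with only the 6 arrays compared (0.120).

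Among 31 genes of other guidance systems, 5 were called. Efnb2, a membrane-bound ephrin, fell with AG1296 10 uM by 0.53 ± 0.08 (log2 difference of -0.53; limma, adjusted p = 0.00399) and with AG1296 1 uM by 0.49 ± 0.08 (0.00353). It was higher with PDGF-AB than with either dose, by 0.69 ± 0.08 at 10 uM and 0.65 ± 0.08 at 1 uM (limma, adjusted p = 0.000215 and 0.00021). Slit2, a ligand of Robo1, was lower with PDGF-AB than with AG1296 10 uM at -0.50 ± 0.11 (limma, adjusted p = 0.0197), and Epha2, an ephrin receptor, was higher than with AG1296 1 uM at 0.51 ± 0.10 (0.0103). Unc5c and Ntn1, a netrin receptor and a netrin, stood at -0.43 ± 0.09 and 0.39 ± 0.10 between AG1296 1 uM and untreated cells (limma, adjusted p = 0.0125 and 0.0462). The Slit2 call ended without AG1296 10 uM replicate 1 or 2 or any PDGF-AB array (limma, adjusted p up to 0.102). The Epha2 call ended without AG1296 1 uM replicate 3 (0.0526) and with only the 6 arrays compared (0.0535). That of Unc5c ended without AG1296 1 uM replicate 3 or untreated replicate 1 or 3 (limma, adjusted p up to 0.0644), and that of Ntn1 under 13 of 21 alternatives, any array of either group left out among them (up to 0.161).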

How the data were processed

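Gene expression was measured on 12 one-colour Affymetrix arrays, 3 per group. Per the labels' protocols, total RNA with an integrity number above 8.0 was used and 100 ng was labelled with biotin. The authors deposited log2 expression values, 1 per probe set, made with RMA per the submitters' processing notes, which also name limma, without versions or settings. Their range gave the log base. An equal shift of all genes cannot be seen in values normalized across arrays.

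Of 28853 probe sets, 21789 carried exactly 1 gene symbol in the platform annotation. Where a gene had several, the brightest on average stood for it, giving 19938 genes with no filter on dim ones. The genome build is not given in the sources used here, and promoter sequences are from RefSeq on GRCm38.p6. All 12 arrays entered 1 fit in limma 3.58.1 (R 4.3.3) with a mean per group and empirical Bayes moderation (prior degrees of freedom 5.35, residual 8). The 6 pairwise comparisons and an F test were two-sided, with Benjamini-Hochberg adjustment over all genes and calls at 0.05. SE and 95% intervals come from the fit, and SD from the 3 arrays.

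The 10 genes, the wider lists, the tests and the alternatives were chosen with earlier results of these data known. All 10 genes were described. Of the wider lists, genes called in at least 1 comparison were named, up to 6 per list. For the 10 genes the alternatives were probe set choice, normalization, filters on dim genes, variance moderation, a replicate block, only the 6 arrays compared and each array left out. They were run for the wider lists after the calls had been seen. The number of arrays limits the precision, and p-values measure the spread between arrays, which may be technical. The fit was also run on simulated data with noise drawn separately for each array, so arrays that deviate together were not covered.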

Additional observations from a re-analysis of the deposited data

How the results depend on the processing

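Of 1308 values of the 10 genes under alternatives, 1280 kept their call and direction, 14 lost a call, 14 gained one and 0 reversed; 15 uncalled values changed sign. Of 21 calls, 18 held under every alternative run, and the exceptions were Sema3d between PDGF-AB and untreated cells, Sema3c between AG1296 1 uM and untreated cells and Sema3e between PDGF-AB and AG1296 10 uM. With only genes whose mean reached that of the median gene, Sema3c passed between PDGF-AB and untreated cells (limma, adjusted p = 0.0393). Nrp2 then passed between AG1296 10 uM and untreated cells (limma, adjusted p = 0.0427) and Sema5a between AG1296 1 uM and untreated cells (0.0438). The filters on dim genes left no value for Sema3b.

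The mean filter tested 9969 genes, against 19938 as reported. It called 133 genes for PDGF-AB against untreated cells (66 as reported), 660 for AG1296 10 uM (375) and 989 for AG1296 1 uM (639). It called 175 between doses (75), 1032 between PDGF-AB and AG1296 10 uM (682) and 1518 in the F test (997). The filter on 3 arrays, which tested 11386 genes, called 114 for PDGF-AB, 626 for AG1296 10 uM and 150 between doses. An intensity trend with robust moderation, over all genes, called 160, 686, 1010, 209, 1077 and 1610 in the order given for the mean filter. Only the 6 arrays compared, with fewer samples, called 7 for PDGF-AB, 218 for AG1296 10 uM, 14 between doses, 391 between PDGF-AB and AG1296 10 uM, and 691 between PDGF-AB and AG1296 1 uM (1039). Of the 10 genes, the count for PDGF-AB against untreated cells became 2 with the mean filter and 0 with only 6 arrays. Between doses it became 2 under either filter or the trend and 1 after quantile normalization.

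Leaving out each array in turn gave, over all genes, 21 to 62 calls for PDGF-AB against untreated cells (21 without untreated replicate 1), 219 to 434 for AG1296 10 uM (219 without AG1296 10 uM replicate 2), 349 to 718 for AG1296 1 uM (349 without AG1296 1 uM replicate 1), 16 to 82 between doses (16 without AG1296 1 uM replicate 2 or AG1296 10 uM replicate 1), 455 to 627 and 696 to 1012 between PDGF-AB and AG1296 at 10 uM and 1 uM, and 731 to 901 in the F test. For the 10 genes the counts were 0 to 1 for PDGF-AB against untreated cells, 3 throughout for AG1296 10 uM, 4 to 5 for AG1296 1 uM, 0 to 1 between doses, 5 to 6 between PDGF-AB and AG1296 10 uM, and 6 throughout for AG1296 1 uM and the F test.

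Arrays of the same number correlated at -0.03 to 0.30 after group means were removed, over 18 pairs, and arrays of other numbers at -0.24 to 0.18 over 36. These ranges overlap, so they do not settle whether the numbers mark pairs. Within numbers the range was -0.02 to 0.07 for number 1, 0.15 to 0.30 for number 2 and -0.03 to 0.22 for number 3. The 4 arrays of number 2 thus deviated together, and each had the lowest median of its group; whether they share a batch or day was not tested. With the replicate block, the count of the 10 genes changed between doses alone, to 1 (Sema3a with a fixed block, limma adjusted p = 0.0415, and Sema3d with a random block, 0.0360). Of 43 calls in the wider lists, 20 held under every alternative, which were added after these calls had been seen, and 0 reversed. The cause of these changes was not tested. Small changes of dim genes such as Sema3b are limited by background.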
